A study of Mus musculus with 10 samples.

Results

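The sugar digestion and absorption genes of the mouse jejunum described here are 10 genes picked by name: the brush border disaccharidases Lct, Sis, Mgam and Treh, the sugar transporters Slc5a1, Slc5a4a, Slc5a4b, Slc2a2 and Slc2a5, and the fructose kinase Khk. All 10 were among the 35275 genes of the deposited expression table, and all 10 had a mean level high enough to be tested. RNA was sequenced from mechanically isolated jejunal epithelial cells of 10 adult C57BL/6 mice, labelled male, that carried VillinCreERT2, a tamoxifen-activated Cre recombinase driven by the villin promoter and so active in the intestinal epithelium, and MYO5Bflox/flox alleles. Corn oil alone was given to the 3 control mice. The 4 MYO5B-knockout mice received 1 injection of 2 mg tamoxifen followed by vehicle for 4 days. The 3 LPA-treated MYO5B-knockout mice received the same tamoxifen dose and intraperitoneal lysophosphatidic acid (LPA), a lipid that acts on cell surface receptors, at 3 mg/kg for 4 days. All mice were examined on day 4. No control received tamoxifen, so the deletion and the drug cannot be told apart in these libraries, and no control received LPA.

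Dietary starch and disaccharides are cut into monosaccharides by enzymes anchored in the microvillus membrane of enterocytes, the absorptive cells of the villus. Glucose and galactose are then carried into the cell with sodium by SGLT1, fructose enters through GLUT5, and the sugars leave toward the blood through GLUT2, while part of the fructose is phosphorylated by ketohexokinase inside the cell. MYO5B, the protein lost in these mice, is a motor that moves recycling endosomes and so helps to deliver membrane proteins to the brush border, and its loss in people causes microvillus inclusion disease.

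In MYO5B-knockout mice every one of the 10 genes had a lower mean than in control mice, but by very different amounts. Lct, Slc5a4a, Slc5a4b, Slc2a5 and Khk fell, from 6.08-fold for Khk to 321-fold for Lct on a log2 scale with 0.1 FPKM added. The size for Lct depends on that added value, because MYO5B-knockout mouse 3 had no Lct read. Treh and Slc5a1 were lower in every MYO5B-knockout mouse than in any control mouse without passing the test, and Sis, Mgam and Slc2a2 overlapped between the groups. None of the 10 passed the test between LPA-treated and vehicle-treated MYO5B-knockout mice.

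The promoters of 4 of these genes are shown because they span that range: Lct fell from a high control level to almost no reads, Khk fell by less, and Sis and Mgam overlapped between the groups. All 10 genes had an entry in the RefSeq promoter table, which holds 250 bases before and 50 bases after each gene's start in GRCm38.p6. Capitals mark matches, on either strand, to the letters GTTAAT for part of an HNF1 site, to AGATAA or its variant TGATAA for a GATA factor, to TTTATNG for a CDX factor, to CAAAGTC for part of an HNF4 site and to CACGTG for an E box. The Lct window is chr1:128328269-128328568 on the minus strand, the Mgam window chr6:40628581-40628880 on the plus strand, the Sis window chr3:72967814-72968113 on the minus strand and the Khk window chr5:30921309-30921608 on the plus strand, each printed 5′ to 3′ along its gene.
Lct: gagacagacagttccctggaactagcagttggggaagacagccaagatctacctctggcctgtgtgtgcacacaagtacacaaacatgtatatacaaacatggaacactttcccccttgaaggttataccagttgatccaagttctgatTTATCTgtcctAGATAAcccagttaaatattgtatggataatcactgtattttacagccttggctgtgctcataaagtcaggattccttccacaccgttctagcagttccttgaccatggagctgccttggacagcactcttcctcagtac
Mgam: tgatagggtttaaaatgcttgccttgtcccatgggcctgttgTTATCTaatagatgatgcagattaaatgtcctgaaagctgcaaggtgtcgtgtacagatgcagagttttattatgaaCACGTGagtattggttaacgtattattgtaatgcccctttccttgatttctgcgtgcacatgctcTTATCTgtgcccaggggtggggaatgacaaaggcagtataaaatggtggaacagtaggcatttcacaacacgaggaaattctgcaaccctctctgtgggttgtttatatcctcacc
Sis: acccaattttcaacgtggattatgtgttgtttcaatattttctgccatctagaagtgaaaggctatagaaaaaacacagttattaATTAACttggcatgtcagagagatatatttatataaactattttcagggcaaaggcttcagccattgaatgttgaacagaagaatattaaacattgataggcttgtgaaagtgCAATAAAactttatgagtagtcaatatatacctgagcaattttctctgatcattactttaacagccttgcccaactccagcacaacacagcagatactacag
Khk: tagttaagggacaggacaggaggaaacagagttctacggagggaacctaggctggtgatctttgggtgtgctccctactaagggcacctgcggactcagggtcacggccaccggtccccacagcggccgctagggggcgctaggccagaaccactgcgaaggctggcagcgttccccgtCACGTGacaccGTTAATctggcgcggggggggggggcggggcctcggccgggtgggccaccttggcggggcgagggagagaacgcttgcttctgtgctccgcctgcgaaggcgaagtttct

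The capitals in Lct are 2 GATA factor matches, those in Mgam are 2 GATA factor matches around an E box, those in Sis are an HNF1 match followed by a CDX factor match, and those in Khk are an E box followed by an HNF1 match. GATA factor matches were present in 3 of the 10 promoters (Lct, Mgam and Slc2a2) and in 18.6% of the 32841 promoters of this length in the table. The HNF1 match was present in 3 of the 10 (Sis, Slc5a4a and Khk) against 7.10% of all promoters, the E box in 3 of the 10 (Mgam, Slc5a1 and Khk) against 7.15%, the CDX match in 1 of the 10 against 10.9%, and the HNF4 match in 1 of the 10, Treh, against 4.44%. Slc5a4b and Slc2a5, which both fell, held none of these letters in this window. Lct and Mgam each held AGATAA 2 times, counting both strands, and Lct fell while Mgam overlapped between groups. A match is a run of letters, and binding was not measured.

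The depth of the libraries set what could be seen. Between 10949420 and 24470409 reads fell on genes per library, and the 10 genes took 0.647% to 1.34% of them in control mice, 0.257% to 0.531% in MYO5B-knockout mice and 0.263% to 0.316% in LPA-treated mice. Control mouse 2 and MYO5B-knockout mouse 3 stood apart, with 12242 and 12601 genes detected against 17309 to 18267 in the other 8 libraries and with 17.4% and 18.0% of reads on mitochondrial genes against 1.98% to 3.50%. MYO5B-knockout mouse 3 and LPA-treated mouse 1 had no reads on the Y-linked genes examined, although all mice were labelled male. Xist, a transcript of female cells, was at 8.41 and 15.1 FPKM in these 2 libraries and at 0 to 0.0524 FPKM in the others. These 2 libraries thus had the pattern of female mice, and no control library had it, so sex was not the same across the groups. The labels of LPA-treated mouse 1 name both vehicle and LPA. Myo5b itself was at 16.5 to 32.0 FPKM (fragments counted per unit of gene length and of sequencing depth, so that levels can be compared between genes) in control mice, 10.5 to 13.6 FPKM in MYO5B-knockout mice and 10.3 to 11.7 FPKM in LPA-treated mice. Markers of stroma and endothelium summed to 3.02 to 12.8 FPKM and liver markers to 0 to 54.8 FPKM. Fewer cells of a type and less RNA per cell cannot be told apart in these bulk samples.

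Lct encodes lactase, which splits milk sugar into glucose and galactose, and lies on chromosome 1 from 128284756 to 128328318 on the minus strand. Its level was 114, 199.8 and 241 FPKM in control mice 2, 4 and 5. The levels of MYO5B-knockout mice 3, 5, 6 and 7 were 0, 0.0188, 3.57 and 1.99 FPKM, and LPA-treated mice 1, 4 and 5 had 0.311, 0.253 and 0.0729 FPKM. The groups did not overlap: the lowest control library held 7743 Lct reads and the highest MYO5B-knockout library 451. MYO5B-knockout mouse 3 had no Lct read among 10949420, which allows a level of up to 0.0444 FPKM by a limit of 3 reads that covers counting error only. The log2 fold change in MYO5B-knockout against control mice was −8.32 (SE 1.19, adjusted p = 0.00935, limma), a 321-fold lower level with a 95% confidence interval of 51.6 to 1992. Without control mouse 5 the log2 fold change was −8.10 with an adjusted p of 0.0669 by limma. Over single mice left out the lowest value was −9.24 (MYO5B-knockout mouse 6) and the highest −7.50 (MYO5B-knockout mouse 3). Over all 22 alternative fits, some with another value added in place of 0.1 FPKM, the log2 fold change ran from −9.69 to −6.52. The confidence interval does not cover the choice of that value.

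**Figure D1:**
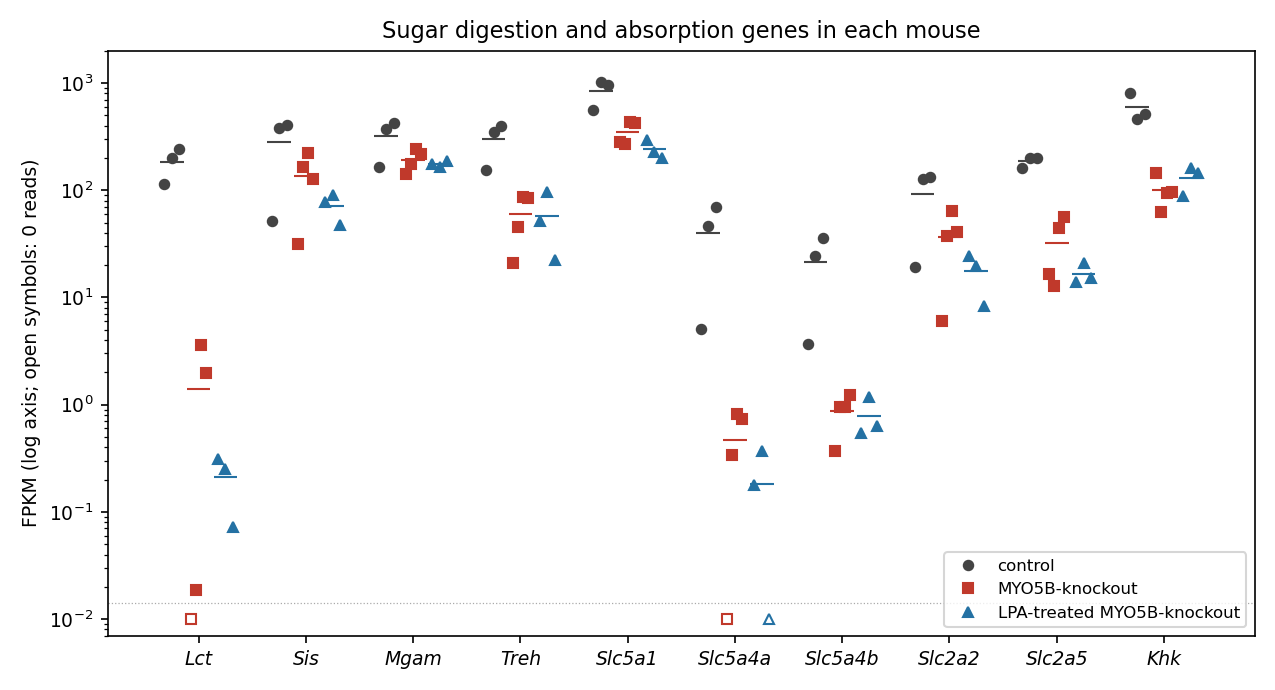
Level of each of the 10 genes in every mouse, in FPKM on a log axis, with control mice as circles, MYO5B-knockout mice as squares and LPA-treated MYO5B-knockout mice as triangles; horizontal lines are group means and open symbols under the dotted line are libraries with 0 reads. Lct sits between 114 and 241 FPKM in the controls, with the other 7 mice at or below 3.57 FPKM, whereas Mgam sits between 140 and 242 FPKM in MYO5B-knockout mice and between 163 and 420.0 FPKM in the controls.

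Sis encodes sucrase-isomaltase, which cuts sucrose and the branches of starch (chromosome 3, 72888557 to 72967863, minus strand), and its level spread widely within groups. Control mice 2, 4 and 5 had 51.3, 383 and 409 FPKM. The levels of MYO5B-knockout mice 3, 5, 6 and 7 were 31.8, 166, 221 and 126 FPKM, and LPA-treated mice 1, 4 and 5 had 77.2, 89.5 and 47.0 FPKM. The low control value was that of mouse 2, which stood apart, and it lay below 3 of the 4 MYO5B-knockout mice. The log2 fold change was −0.86 (SE 0.80, adjusted p = 0.612, limma), with a 95% confidence interval of −2.64 to 0.91. With both libraries that stood apart left out it was −1.25 with an adjusted p of 0.0730 by limma. With a model term for these 2 libraries it was −1.08 with an adjusted p of 0.0241 by limma, the only 1 of 22 alternative fits that called Sis.

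Mgam encodes maltase-glucoamylase, which releases glucose from the ends of starch chains (chromosome 6, 40628831 to 40769123, plus strand). Control mice 2, 4 and 5 had 163, 372 and 420.0 FPKM. The levels of MYO5B-knockout mice 3, 5, 6 and 7 were 140.4, 175, 242 and 217 FPKM, and LPA-treated mice 1, 4 and 5 had 176, 164 and 186 FPKM. Control and MYO5B-knockout mice overlapped only through control mouse 2. The log2 fold change was −0.64 (SE 0.35, adjusted p = 0.382, limma). With both libraries that stood apart left out it was −0.92 with an adjusted p of 0.0441 by limma. Mgam was called in 3 of 22 alternative fits, and in 0 of the 10 that left out 1 mouse.

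Treh encodes trehalase, which splits the fungal and insect sugar trehalose (chromosome 9, 44673233 to 44686305, plus strand). Control mice 2, 4 and 5 had 156, 352 and 395 FPKM. The levels of MYO5B-knockout mice 3, 5, 6 and 7 were 21.0, 45.5, 87.2 and 84.2 FPKM, and LPA-treated mice 1, 4 and 5 had 51.4, 96.8 and 22.6 FPKM. No induced mouse reached the lowest control. The log2 fold change was −2.44 (SE 0.61, adjusted p = 0.0696, limma), and edgeR's quasi-likelihood test on the reads gave an adjusted p of 0.0306. Treh was called in 5 of 22 alternative fits, and in 0 of the 10 that left out 1 mouse. Treh overlaps Phldb1 on the opposite strand, which had 3.99% as many reads as Treh over all libraries and up to 23.5% in 1 library, and whether strand was used in counting is not given in the sources used here.

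Slc5a1 encodes SGLT1, the sodium-driven carrier of glucose and galactose in the brush border (chromosome 5, 33104219 to 33162872, plus strand). It had the highest mean level of the 10 genes in each group. Control mice 2, 4 and 5 had 564, 1012 and 957 FPKM. The levels of MYO5B-knockout mice 3, 5, 6 and 7 were 279, 271, 433 and 426 FPKM, and LPA-treated mice 1, 4 and 5 had 295, 228 and 198 FPKM. Each induced mouse lay below each control mouse. The log2 fold change in MYO5B-knockout against control mice was −1.25 (SE 0.32, adjusted p = 0.0744, limma), a 2.38-fold lower level with a 95% confidence interval of 1.45 to 3.90. It passed the threshold once both libraries that stood apart were left out, at −1.42 with an adjusted p of 0.0381 by limma. In edgeR on the reads it passed with an adjusted p of 0.0392. Slc5a1 was called in 5 of 22 alternative fits, and in 0 of the 10 that left out 1 mouse.

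Slc5a4a and Slc5a4b are neighbours on chromosome 10, at 76147451 to 76189265 on the plus strand and 76057494 to 76110961 on the minus strand, and encode proteins related to SGLT1, named SGLT3a and SGLT3b. For Slc5a4a, control mice 2, 4 and 5 had 5.02, 46.1 and 69.8 FPKM, the levels of MYO5B-knockout mice 3, 5, 6 and 7 were 0, 0.339, 0.810 and 0.733 FPKM, and LPA-treated mice 1, 4 and 5 had 0.179, 0.366 and 0 FPKM. For Slc5a4b, these mice had 3.68, 24.4 and 35.8 FPKM, then 0.371, 0.942, 0.948 and 1.22 FPKM, then 0.549, 1.17 and 0.633 FPKM. For both genes control mouse 2 was the lowest control and still above every induced mouse. Slc5a4a fell by 5.90 on the log2 scale (SE 1.05, adjusted p = 0.0241, limma). Slc5a4b fell by 4.04 on the log2 scale (SE 0.74, adjusted p = 0.0273, limma). Leaving out control mouse 2, the 2 log2 fold changes were −7.06 and −5.03, and without control mouse 5 they were −5.17 and −3.41 with adjusted p-values of 0.116 and 0.126 by limma. Without control mouse 4 the adjusted p-values were 0.0929 and 0.102, and without MYO5B-knockout mouse 5 they were 0.0795 and 0.0802; Slc5a4b also missed the threshold without MYO5B-knockout mouse 6 (0.0681) or LPA-treated mouse 5 (0.0518). Slc5a4a had no reads in MYO5B-knockout mouse 3 or LPA-treated mouse 5, which allows up to 0.133 and 0.109 FPKM by the limit of 3 reads. The annotated transcripts of Slc5a4a and Slc5a4b shared 1 run of 50 bases, of 2006 in Slc5a4a and 3150 in Slc5a4b, so few reads of that length could belong to both.

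Slc2a5 encodes GLUT5, the brush border carrier of fructose (chromosome 4, 150119283 to 150144169, plus strand), and Khk encodes ketohexokinase, which phosphorylates fructose in the cytosol (chromosome 5, 30921556 to 30931246, plus strand). Both fell. For Slc2a5, control mice 2, 4 and 5 had 163, 200.3 and 198 FPKM, the levels of MYO5B-knockout mice 3, 5, 6 and 7 were 16.6, 12.7, 44.3 and 55.7 FPKM, and LPA-treated mice 1, 4 and 5 had 13.8, 20.8 and 15.1 FPKM. For Khk, these mice had 813, 465 and 518 FPKM, then 146, 62.1, 94.2 and 97.3 FPKM, then 88.0, 160.0 and 145 FPKM. For neither gene did an induced mouse reach the lowest control. Control mouse 2, the lowest control for each sugar transporter among the 10 genes, had the highest Khk level of any mouse. Slc2a5 fell by 2.79 on the log2 scale (SE 0.49, adjusted p = 0.0218, limma), and without control mouse 4, control mouse 5 or MYO5B-knockout mouse 5 in turn its adjusted p was 0.0798, 0.107 or 0.0596. Khk fell by 2.60 on the log2 scale (SE 0.36, adjusted p = 0.00818, limma), a 6.08-fold lower level with a 95% confidence interval of 3.51 to 10.5, and it passed the threshold in all 22 alternative fits.

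Slc2a2 encodes GLUT2, the carrier through which sugars leave the enterocyte on its basolateral side (chromosome 3, 28697903 to 28728356, plus strand). Control mice 2, 4 and 5 had 19.3, 126 and 134 FPKM. The levels of MYO5B-knockout mice 3, 5, 6 and 7 were 5.98, 37.1, 63.9 and 40.9 FPKM, and LPA-treated mice 1, 4 and 5 had 24.5, 19.7 and 8.34 FPKM. In control and MYO5B-knockout mice the library that stood apart had the lowest level. The log2 fold change was −1.31 (SE 0.88, adjusted p = 0.475, limma), with a 95% confidence interval of −3.26 to 0.63. Without these 2 libraries it was −1.50 with an adjusted p of 0.0973 by limma. With a model term for them it was −1.55 with an adjusted p of 0.0149 by limma, the only 1 of 22 alternative fits that called Slc2a2.

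Over the 10 genes, 5 fell and none rose in MYO5B-knockout against control mice at an adjusted p of 0.05, while 0.884% of the 15729 genes tested were called lower, 1.13% higher and 2.01% in either direction. For 7 of the 10 genes the MYO5B-knockout mice all lay below the control mice, against 6.2% of all genes tested, and for 11% the MYO5B-knockout mice all lay above. All 10 log2 fold changes were below 0, against 36.6% of all genes. The median log2 fold change was −2.52 for the 10 genes and 0.29 for all genes tested. Scaling the libraries by their median ratio moved that median of all genes to 0.04, and 7 of the 10 genes were then called lower. The same scaling changed the calls over all genes from 177 higher and 139 lower to 222 higher and 376 lower. Leaving out control mouse 4, control mouse 5 or MYO5B-knockout mouse 5 left 2, 1 or 2 of the 10 genes called, and leaving out any other mouse left 4 or 5. Without MYO5B-knockout mouse 3 and LPA-treated mouse 1, which had no Y-linked reads, 2 were called, Lct and Khk. All 10 log2 fold changes stayed negative in each of these fits.

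The order of the genes changed between groups. In control mice it ran Slc5a1, Khk, Mgam, Treh, Sis, Slc2a5, Lct, Slc2a2, Slc5a4a and Slc5a4b by mean FPKM, and only Khk and Mgam among neighbours did not overlap. In MYO5B-knockout mice it ran Slc5a1, Mgam, Sis, Khk, Treh, Slc2a2, Slc2a5, Lct, Slc5a4b and Slc5a4a, where Slc5a1 did not overlap Mgam and Slc2a5 did not overlap Lct. Lct, with a mean of 185 ± 64.8 FPKM (SD, n = 3) in control mice, was at 1.40 ± 1.73 FPKM (SD, n = 4) after induction, below Slc2a2 at 37.0 ± 23.8 FPKM (SD, n = 4).

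Ratios of 2 genes within a mouse do not depend on the depth of its library, and 6 pairs were compared between the 3 control mice and all 7 induced mice. The log2 ratio of Lct to Sis was 1.14, −0.94 and −0.76 in control mice 2, 4 and 5, −8.32, −10.45, −5.91 and −5.92 in MYO5B-knockout mice 3, 5, 6 and 7, and −7.55, −7.99 and −8.09 in LPA-treated mice 1, 4 and 5. All 7 induced mice lay below all 3 control mice. The difference was −7.56 (p = 0.0167, exact two-sided permutation test, adjusted p = 0.0333 over the 6 pairs), and 0.0167 is the smallest p that 3 against 7 mice allow. The pairs were chosen with earlier results of these data known. Lct, Slc5a4a and Slc2a5 by themselves were lower in every induced mouse than in any control mouse. The p-values of the ratios thus describe how the mice separate and are not independent evidence of a change. Slc5a4a relative to Slc5a4b differed by −2.19, from 0.77 ± 0.29 (SD, n = 3) in control mice to −1.09 ± 0.88 (SD, n = 4) and −1.85 ± 0.90 (SD, n = 3) in vehicle-treated and LPA-treated mice, and was lower in 7 of 7 induced mice with the same exact permutation p and adjusted p. Slc5a1 relative to Slc2a5 differed by 1.62, from 2.13 ± 0.30 (SD, n = 3) to 3.67 ± 0.68 (SD, n = 4) and 3.85 ± 0.50 (SD, n = 3), and was higher in 7 of 7 induced mice with the same exact permutation p and adjusted p. With both libraries that stood apart left out these 3 differences were −6.80, −2.21 and 1.39, and the smallest p that the remaining 2 against 6 mice allow is 0.0714. Where a library had no read of a gene, its ratio was set by the added 0.1 FPKM: MYO5B-knockout mouse 3 for Lct and Slc5a4a, and LPA-treated mouse 5 for Slc5a4a, whose limits of 0.133 and 0.109 FPKM lie above the added value.

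The other 3 pairs did not pass. Mgam relative to Sis differed by 0.47 (adjusted p = 0.480, exact permutation test). Its overlap came from control mouse 2, at 1.67: control mice 4 and 5 were at −0.04 and 0.04, below all 7 induced mice, which ran from 0.08 to 2.14. With both libraries that stood apart left out the Mgam to Sis difference was 0.84 with the same adjusted p, 0.107 by exact permutation, as the 3 pairs above. Khk relative to Slc2a5 differed by 0.67 (adjusted p = 0.480, exact permutation test) and Slc5a1 relative to Slc2a2 by 0.17 (adjusted p = 0.783, exact permutation test). Khk relative to Slc2a5 was 1.83 ± 1.08 (SD, n = 4) in vehicle-treated and 2.95 ± 0.30 (SD, n = 3) in LPA-treated mice, against 1.64 ± 0.59 (SD, n = 3) in control mice.

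**Figure D2:**
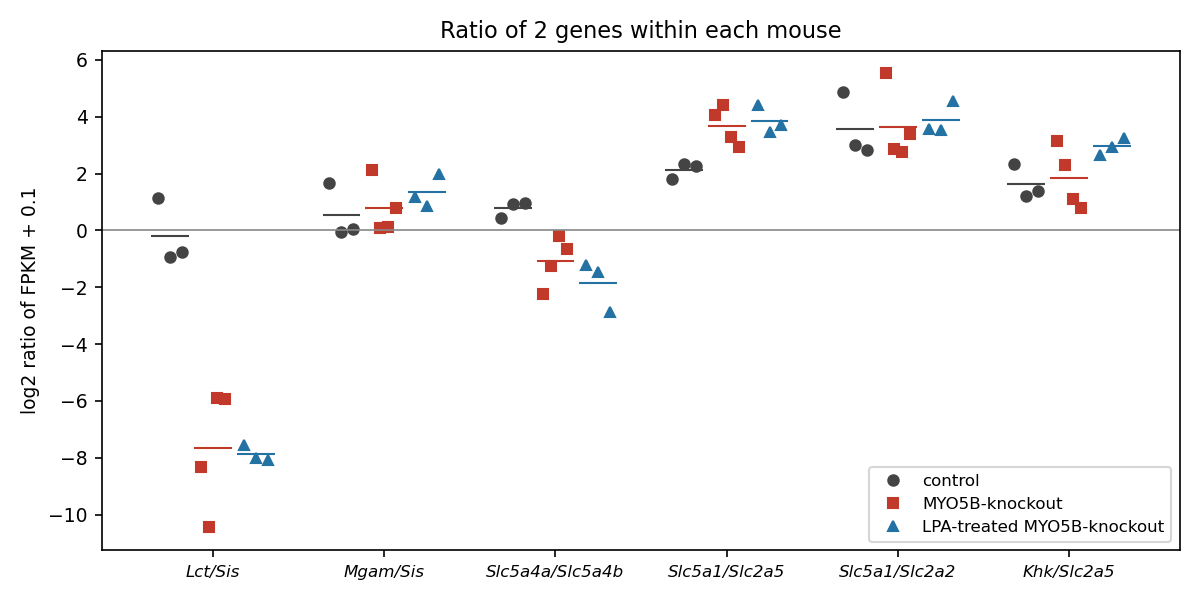
Ratio of 2 genes within each mouse, as log2 of (FPKM + 0.1) of the first over the second, with control mice as circles, MYO5B-knockout mice as squares and LPA-treated MYO5B-knockout mice as triangles, and group means as lines. Lct to Sis lies at or below −5.91 in every induced mouse and at or above −0.94 in every control mouse, while Slc5a1 to Slc2a2 overlaps and Mgam to Sis overlaps through control mouse 2, at 1.67.

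LPA treatment was compared with vehicle in induced mice to ask whether the lipid moved these genes. None of the 10 passed an adjusted p of 0.05 in limma, none had an unadjusted p under 0.05, and all 10 overlapped between the groups, against 0.604% of all genes with the LPA-treated mice all below and 3.56% with them all above. Over all genes limma called 0 (0% of 15729), with 459 at an unadjusted p under 0.05, edgeR called 0 and DESeq2 called 5, none of them among the 10. Of the 10 log2 fold changes 9 were below 0, against 39.3% of all genes, with a median of −0.61 against 0.11 for all genes tested. Khk was the exception, with 131 ± 38.0 FPKM (SD, n = 3) under LPA and 99.9 ± 34.6 FPKM (SD, n = 4) under vehicle, a log2 fold change of 0.41 (95% confidence interval −0.38 to 1.202). For Lct the log2 fold change was −0.91 (95% confidence interval −3.54 to 1.73), for Slc5a1 −0.54 (−1.25 to 0.18) and for Mgam −0.11 (−0.89 to 0.67). These intervals reach a level 2.38-fold lower for Slc5a1 and 11.7-fold lower for Lct, and each also includes a higher level under LPA.

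LPA-treated against control mice shared the control libraries with the comparison above, so its values are given side by side. Of the 10 genes 6 were called lower, against 0.776% of all genes tested (1.54% higher, 2.32% in either direction). For 7 of the 10 the LPA-treated mice all lay below the control mice, against 6.38% of all genes below and 20.5% above, and all 10 log2 fold changes were below 0, against 30% of all genes. Lct was lower by 9.23 on the log2 scale (8.32 in vehicle-treated mice), Slc5a4a by 6.76 (5.90), Slc5a4b by 4.14 (4.04), Slc2a5 by 3.50 (2.79), Khk by 2.19 (2.60) and Slc5a1 by 1.79 (1.25). Slc5a1, with an adjusted p of 0.0284 by limma, was the gene called here and not in vehicle-treated mice, and the difference between those effects is the LPA against vehicle comparison, in which it did not pass. Treh had a log2 fold change of −2.53 (adjusted p = 0.0801, limma), Slc2a2 of −2.11 (0.298), Sis of −1.54 (0.403) and Mgam of −0.75 (0.357). Leaving out control mouse 4, control mouse 5 or LPA-treated mouse 1, 4 or 5 left 3, 2, 2, 3 or 1 of the 10 called. With both libraries that stood apart left out all 10 were called. Calls over all genes rose in that fit too, from 365 to 1346 of the 15729 tested.

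**Figure D3:**
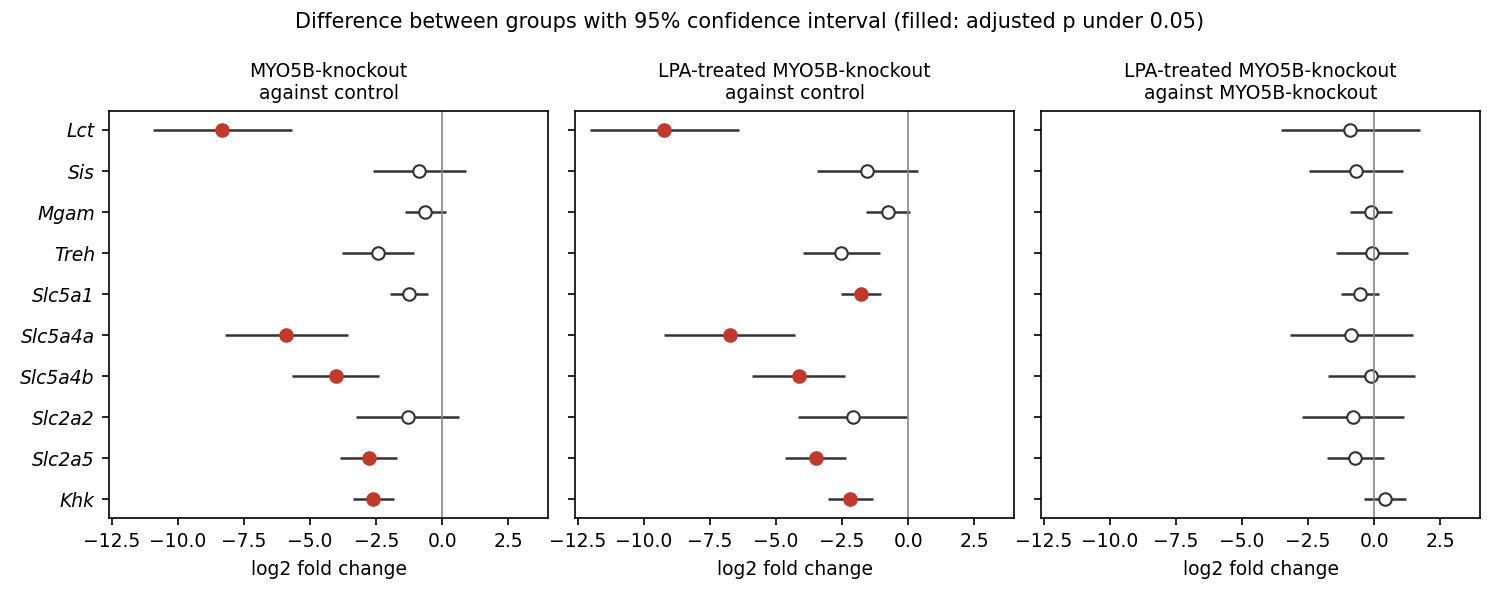
Log2 fold change of each of the 10 genes, on the log2(FPKM + 0.1) scale, with its 95% confidence interval as a line, for 3 comparisons; filled points have an adjusted p under 0.05. In the panels against control every point lies to the left of 0, from −8.32 and −9.23 for Lct to −0.64 and −0.75 for Mgam, and in the panel of LPA against vehicle every interval crosses 0.

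Other genes of sugar handling were taken from lists for comparison. Among 16 other sugar transporters 10 were tested, 1 rose and 1 fell in MYO5B-knockout mice, and their median log2 fold change was −0.49. Slc2a1, which encodes the widely expressed glucose carrier GLUT1, rose from 3.77 ± 1.47 FPKM (SD, n = 3) to 22.8 ± 6.89 FPKM (SD, n = 4), and the ranges, 2.19 to 5.08 and 14.9 to 30.6 FPKM, did not overlap. Its log2 fold change was 2.59 (SE 0.35, adjusted p = 0.00810, limma), and it was 31.0 ± 1.41 FPKM (SD, n = 3) in LPA-treated mice. Slc5a11, an inositol and glucose carrier, fell from 64.3 ± 23.5 FPKM (SD, n = 3) to 5.07 ± 3.09 FPKM (SD, n = 4), a log2 fold change of −3.78 (SE 0.52, adjusted p = 0.00852, limma). Slc2a7 was 40.4 ± 20.9 FPKM (SD, n = 3) in control and 8.82 ± 6.88 FPKM (SD, n = 4) after induction (adjusted p = 0.167, limma), and Slc50a1, an exporter of the SWEET family, had a log2 fold change of −0.02 (adjusted p = 0.989, limma). In LPA-treated against control mice 2 were called higher, Slc2a1 and the inositol carrier Slc5a3, and 1 lower, Slc5a11. Without the libraries that stood apart, Slc5a3 was also called higher in MYO5B-knockout mice, at 1.70 on the log2 scale (adjusted p = 0.0373, limma), and in LPA-treated mice 2 were called higher and 4 lower.

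Of the 11 genes for phosphorylating or releasing glucose 10 were tested and 1 rose. Hk1, a hexokinase that traps glucose in the cell, ranged from 0.296 to 1.62 FPKM in control mice and from 4.12 to 9.38 FPKM under the deletion, with a log2 fold change of 2.72 (SE 0.57, adjusted p = 0.0426, limma). Slc37a4, the glucose 6-phosphate carrier of the endoplasmic reticulum, was 46.5 ± 20.4 FPKM (SD, n = 3) and 16.1 ± 3.54 FPKM (SD, n = 4) (adjusted p = 0.0636, limma). The log2 fold changes of the abundant hexokinase-domain gene Hkdc1 and of Pck1 were −0.05 and −2.17 (adjusted p = 0.979 and 0.561, limma). In LPA-treated against control mice Hk1 and Pck2 were called higher. Leaving these libraries out, 2 genes of this list were also called lower in MYO5B-knockout mice, Slc37a4 at −1.68 (adjusted p = 0.00958, limma) and the gluconeogenic enzyme gene Fbp1 at −2.92 (adjusted p = 0.00545, limma), and 3 were called lower in LPA-treated mice.

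Other enzymes of fructose metabolism did not pass with all 10 mice. Tkfc, the triokinase, had a log2 fold change of −1.26 (SE 0.80), Sord, the sorbitol dehydrogenase, of −1.57 (SE 0.62) and Glyctk, the glycerate kinase, of −1.14 (SE 1.12), with a smallest adjusted p of 0.223 (limma). Sord was called lower once the libraries that stood apart were left out, at −1.95 (adjusted p = 0.00474, limma). In that same fit Sord and Glyctk were called lower in LPA-treated against control mice. With all 10 mice none of these enzymes was called in that comparison (smallest adjusted p = 0.179, limma). The difference between these genes and Khk was not tested. Of the 6 galactose enzymes 0 were called, with a median log2 fold change of −0.21 and values for Galm and Galk1 of −1.09 and −0.36. Galm was called lower with both of those libraries left out, at −1.43 in MYO5B-knockout and −2.13 in LPA-treated against control mice (adjusted p = 0.0262 and 0.00547, limma). Of the 6 starch and glycoside enzymes only Gaa was high enough to test, with a log2 fold change of 0.33. Lctl and Amy1 had control means of 0.0762 and 0.0288 FPKM, and Amy2a5 and Amy2b had no reads in any library. The beta subunits of the sodium pump, which maintains the gradient that drives SGLT1, were not called either, with log2 fold changes of −0.38 for Atp1b1 and 1.09 for Atp1b3 (adjusted p = 0.0604, limma), and Atp1b3 was called higher in LPA-treated against control mice without the libraries that stood apart (adjusted p = 0.0376, limma).

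Of 14 sugar-sensing genes and transcription factors 11 were tested and 0 called in MYO5B-knockout against control mice. Mlxipl, which encodes the sugar-responsive factor ChREBP, was 29.4 ± 7.18 FPKM (SD, n = 3) under corn oil and 13.6 ± 2.18 FPKM (SD, n = 4) under tamoxifen and vehicle; the groups did not overlap, with a log2 fold change of −1.10 (SE 0.27, adjusted p = 0.0658, limma). Hnf4a, Cdx2, Gata4 and Txnip had log2 fold changes of 0.41, −0.32, 0.30 and −0.01. In the fit without the libraries that stood apart 1 of the 11 was called, Mlxipl, at −1.24 (adjusted p = 0.0323, limma), and in LPA-treated against control mice 2 were called higher and 1 lower.

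**Figure D4:**
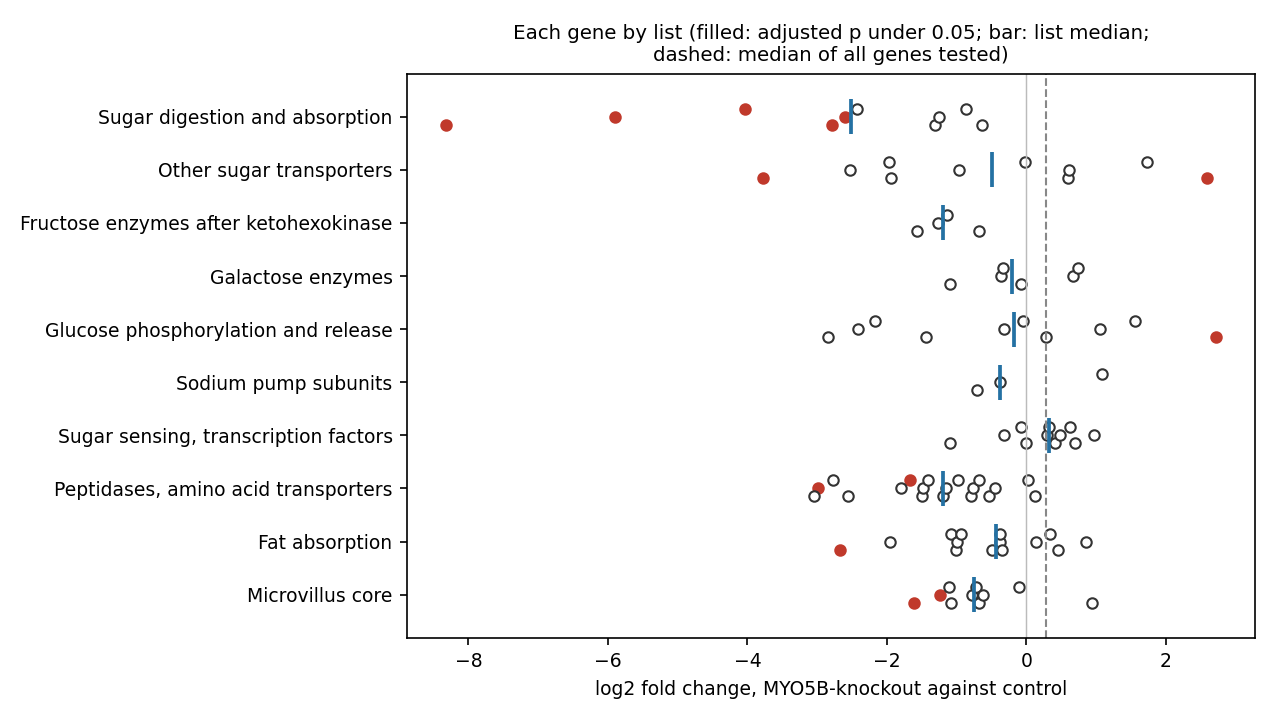
Log2 fold change in MYO5B-knockout against control mice for every tested gene of each list, 1 circle a gene, filled where the adjusted p is under 0.05; blue bars are list medians and the dashed line is the median of all genes tested, 0.29. The sugar digestion and absorption genes have a median of −2.52 and 5 filled circles, and the other sugar-handling lists have 1 gene called higher and 1 lower among transporters and 1 called higher among glucose enzymes.

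Other absorptive genes of the enterocyte were set beside the sugar genes, first in MYO5B-knockout against control mice. Of 19 brush border peptidases and peptide or amino acid transporters 2 were called lower, Naaladl1 and Ggt1, and the median log2 fold change was −1.19. Of 14 fat absorption genes 1 was called lower, Apoc3, with a median of −0.44, and of 10 microvillus core genes 2 were called lower, Espn and Ush1c, with a median of −0.75. With both libraries that stood apart left out, the calls in these lists were 2 lower (Mep1a and Slc7a8), 2 lower (Apoc3 and Cd36) and 1 lower (Ush1c), with medians of −1.27, −0.54 and −0.80, beside 7 lower and a median of −2.49 for the 10 sugar genes. In LPA-treated against control mice these lists had 4, 1 and 2 genes called lower, with medians of −1.47, −0.62 and −0.93. The 10 sugar genes had 6 and −2.36. All 19 log2 fold changes of the peptidase and transporter list were then below 0. Without the libraries that stood apart, that list had 7 called lower and a median of −2.21, beside 10 and −2.98 for the sugar genes. Calls over all 15729 genes rose too, from 316 to 778 in MYO5B-knockout and from 365 to 1346 in LPA-treated against control mice. These counts and medians are descriptions, and no test of the lists against each other was made.

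Cell type markers were compared as well, and few were called. None of the 10 markers of mature enterocytes was called. Their median log2 fold change was −0.58, with 6 of the 10 below 0. Alpi and Ada had higher means in MYO5B-knockout than in control mice, 783 against 358 and 2397 against 1290 FPKM. The summed level was 32843 to 43035 FPKM in control, 16274 to 32261 FPKM in MYO5B-knockout and 27440 to 49630 FPKM in LPA-treated mice. Most of the control sum was Apoa1, Fabp1 and Fabp2. All 10 markers of proliferating crypt cells had higher means in MYO5B-knockout mice with 0 called (smallest adjusted p = 0.0595, limma), and their summed level was 92.5 to 130 FPKM in control, 218 to 358 FPKM in MYO5B-knockout and 160.0 to 267 FPKM in LPA-treated mice. All 10 leukocyte markers had lower means, 1 of them called, with sums of 1449 to 2944, 57.8 to 1101 and 143 to 273 FPKM. Most of the control sum was Cd74 and H2-Aa, genes of antigen presentation, with control means of 1690 and 605 FPKM. Ptprc and Cd3e had control means of 2.17 and 6.95 FPKM, so the sums say little about the other markers. The 4 markers of the distal small intestine summed to 305 to 344, 112 to 192 and 117 to 165 FPKM and none was called. Most of this sum was Slc51a and Slc51b, with control means of 221 and 96.9 FPKM. Fabp6 and Slc10a2 had higher means in MYO5B-knockout than in control mice, 4.06 against 1.615 and 2.19 against 0.371 FPKM. The log2 fold change was below 0 for 2 of the 4, with a median of 0.08. Of the 4 markers of the proximal small intestine, which summed to 22.8 to 56.8, 27.4 to 69.4 and 32.3 to 91.1 FPKM, 1 was called higher, Cybrd1. After leaving out the libraries that stood apart, none of the proximal markers was called, and of the distal markers Slc10a2 was called higher and Slc51a lower. The part of these differences in the sugar genes was not tested.

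The genes whose profile over the 10 libraries came nearest were found for 4 of the sugar genes by the root mean square difference of centred log2(FPKM + 0.1) values among 10574 other genes whose mean reached 1 FPKM. For Lct, which itself deviated by 4.30, they were Cyp2b10, Dnase1 and Gsdmc4, with differences of 1.58, 1.59 and 1.61, and 4 genes in all were closer to it than Slc5a4a, at 1.63. For Sis, which deviated by 1.202, they were 2010001E11Rik, Rhobtb3 and Otc at 0.20, 0.33 and 0.35, and Slc2a2 followed with 6 genes closer, at 0.36. For Slc5a1 they were Zfp768, Cndp2 and Cnnm2 at 0.23, 0.23 and 0.24, and for Khk they were Aamdc, Apoc3 and Amn at 0.25, 0.25 and 0.30. Mgam was at 0.79 from Sis.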

How the data were processed

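RNA-seq of jejunal epithelial cells covered 10 mice in 3 groups. The authors deposited FPKM values per gene for each library, which rest on poly-A libraries and, per the labels, on tools named STAR 2.5, TopHat, HTSeq 0.6.1 and DESeq2 and the build GRCm38; which tool made which step is not given in the sources used here. A second deposited table held counts for a few genes, 63 values in all, together with the authors' own fold changes and p-values, which were not used, nor were pathway tables. FPKM times gene length gave whole reads, and 63 of 63 deposited counts equalled them. The 15729 genes whose mean reached 0.1 FPKM were tested on log2(FPKM + 0.1) with limma 3.58.1 in R 4.3.3, all 3 groups in 1 model with an intensity trend and Benjamini-Hochberg adjustment; fold changes on this scale understate the change of low genes, and where a library had no reads they depend on the 0.1 added. edgeR 4.0.16 and DESeq2 1.42.0 on the recovered reads, other pseudocounts, filters, scalings and sample sets were alternatives. Ratios within mice were tested by exact permutation (scipy 1.17.1). Confidence intervals come from limma and rest on the spread between mice, while limits of 3 reads cover counting error only. The members, gene lists and tests were chosen with earlier results of these data known. All 10 genes are named, with the genes of each pathway list past an adjusted p of 0.05 in MYO5B-knockout against control mice and its 3 with the highest control mean, except some that are not reported here; Glyctk, Mlxipl, Gata4, Slc5a3, Pck2, Amy2a5, Amy2b Fbp1 and the called genes of the comparison and marker lists were added after their values were seen. Scripts were tested on simulated data.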

Additional observations from a re-analysis of the deposited data

Results flagged for a closer look

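Among the values of the 4 MYO5B-knockout mice, 2 genes had 1 mouse far from the other 3 by Dixon's test, and it was mouse 3, the library with few genes detected, both times. Atp1b1 was at 287 FPKM in that mouse, the lowest of the group, and Slc50a1 was at 32.0 FPKM, the highest of the group. Chance flags about 1 in 20 groups. The test was run on the 10 sugar digestion and absorption genes, on other named genes and on the ratios within mice, so a few flags can arise by chance. None of the 10 genes met the limit.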

How the results depend on the processing

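In MYO5B-knockout against control mice and in LPA-treated against control mice no log2 fold change of the 10 genes reversed under any alternative fit. The count of the 10 genes called, 5 in MYO5B-knockout and 6 in LPA-treated against control mice, was 10 and 10 with a term for control mouse 2 and MYO5B-knockout mouse 3, 1 and 2 in fits of the 2 groups alone, and 8 and 10 with DESeq2. It was 7 and 10 without both of those libraries and 2 and 5 without the 2 libraries that lacked Y-linked reads. Leaving out 1 mouse at a time gave 1 to 5 and 1 to 7 (all genes 44 to 403 and 73 to 702), and 0 to 0 in LPA-treated against MYO5B-knockout mice. All genes called, 316 and 365, became 598 for MYO5B-knockout mice with median-ratio scaling, 804 and 626 with quantile normalization, 50 and 190 in fits of 2 groups, 778 and 1346 without the 2 libraries, 2449 and 1800 with a term for them, 1805 and 1474 with DESeq2, 519 for MYO5B-knockout mice with edgeR and 188 for MYO5B-knockout mice with no filter. DESeq2 called 5 genes between LPA-treated and vehicle-treated mice, where limma called 0. The cause of these shifts was not tested.

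Only LPA-treated and control mice shared more than 1 mouse number (4 and 5). A fit of those 4 libraries with the mouse number as a block called 0 genes and 0 of the 10; the adjusted p was 0.155 for Lct. Same-numbered LPA-treated and control mice correlated at 0.10 and −0.36 in their deviations from the group means, and differently numbered ones at −0.41 and 0.16. So few values cannot decide whether the numbers pair the mice. No paired analysis was possible for the other comparisons because they share only mouse 5.

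Between LPA-treated and vehicle-treated mice, where no gene was called, 8 fold changes changed sign: without MYO5B-knockout mouse 6, Lct was 0.0051, Treh 0.16 and Mgam 0.0047; without MYO5B-knockout mouse 7, Treh was 0.14 and Slc5a4b 0.079; without LPA-treated mouse 1, Slc5a4b was 0.090; without LPA-treated mouse 5, Treh was 0.45 and Slc5a4b 0.0026. The lowest values with 1 mouse left out were −1.73 for Lct, −0.59 for Treh, −0.26 for Mgam and −0.42 for Slc5a4b. The ratio of Slc5a1 to Slc2a2 was −0.11, −0.19 and −0.12 without control mouse 4, control mouse 5 and MYO5B-knockout mouse 3. With both libraries that stood apart left out the ratios Lct to Sis, Slc5a4a to Slc5a4b and Slc5a1 to Slc2a5 were −6.80, −2.21 and 1.39 with an adjusted p of 0.107 by exact permutation; with 2 control mice no pair can pass. Over single mice left out the 6 differences ranged from −7.94 to −6.89, from 0.17 to 1.03 (Mgam to Sis), from −2.39 to −1.94, from 1.44 to 1.75, from −0.19 to 0.82 (Slc5a1 to Slc2a2) and from 0.46 to 1.01 (Khk to Slc2a5).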
